A study of Mus musculus with 6 samples.

Results

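Interferon-stimulated genes were examined in obstructed mouse kidneys with and without the microRNA miR-92b. The genes were 49 symbols listed by name, and 47 of them had a row among the 34714 genes of the kidney count table. Mx1 and Mx2, of the MX family of antiviral dynamin-like GTPases, were not analysed here, and Mx2 is annotated as a polymorphic pseudogene. All 47 measured members passed the filter on low counts and were among the 18927 genes tested. Classes were assigned from textbook knowledge, with earlier results of these data known. Of the measured members, 39 were placed in a type I class and 8 in a class that leans towards interferon gamma. The classes overlap in biology, since many of these genes respond to both kinds of interferon.

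Whole left kidneys were compared 10 days after unilateral ureteral obstruction (UUO), a surgery in which the ureter is tied so that the kidney becomes inflamed and scarred. The mice were males operated on at 8 weeks of age. One group was wild type C57BL/6J (3 libraries). The other was the global knockout miR-92b-/- (C57BL/6JGpt- Mir-92bem22Cd549/Gpt), which lacks the microRNA in all cell types (3 libraries). Both groups had been obstructed and no sham kidney was used here, so the values say nothing of how obstruction itself moved these genes. The treatment text of the labels calls the ligated kidneys nonfibrotic controls, at odds with UUO as a fibrosis model. The labels do not say that replicates were separate animals, so p-values measure the spread between these libraries, which may be technical. The microRNA gene had no row, so the deletion itself could not be checked in these counts.

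Interferons are secreted alarm proteins. Type I interferons bind the receptor IFNAR and activate the complex ISGF3, which holds STAT2 and IRF9 and binds a promoter element called the ISRE. Interferon gamma, made mainly by T and NK cells, binds another receptor, whose signal acts through the GAS element. Induced genes block viral translation, cut viral RNA, sense foreign nucleic acid or, for the gamma response, load peptides for display to T cells. In the injured kidney the same programme is run by resident and infiltrating cells.

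The deleted microRNA and stretches of member promoters are printed to show the shared letters behind the word interferon-stimulated. The mature miR-92b-3p of RefSeq lies at chr3:89227126-89227147 on the minus strand of GRCm38.p6, and its seed, bases 2 to 8, is in capitals:
mmu-miR-92b-3p: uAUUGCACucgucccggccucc

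ISRE letters were searched as GAAA, any 2 bases and a further GAAA, and GAS letters as TTCNNNGAA, on both strands, in windows from 250 bases before to 50 bases after each RefSeq start site. Matches of one motif may overlap each other or the other motif. Of the 49 listed members, 38 had a promoter in the RefSeq table, and those without one were Dhx58, Mx1, Mx2, Oas2, Parp14, Parp9, Zbp1, Ifi27l2a, Usp18, Ifi27 and Rtp4. ISRE letters stood in 19 of the 38 members (50%), against 1079 of 27024 genes of the count table (3.99%). By class they stood in 14 of 30 type I members and in 5 of 8 gamma-leaning members. GAS letters stood in 10 of the 38 members (26.3%), against 9.55% of genes. These were 7 of 30 type I members and 3 of 8 gamma-leaning members. A match describes letters and does not show that a factor binds there.

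The stretches below lie upstream of the start site on GRCm38.p6, read 5′ to 3′ on the gene's strand, with the ISRE letters in capitals. Isg15, at chr4:156200863-156200908 on the minus strand, held 3 overlapping matches. The pair Ifit3 (chr19:34583361-34583428) and Ifit3b (chr19:34607757-34607824), both on the plus strand, is shown because their stretches are identical letter for letter.
Isg15: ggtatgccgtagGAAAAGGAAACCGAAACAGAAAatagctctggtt
Ifit1: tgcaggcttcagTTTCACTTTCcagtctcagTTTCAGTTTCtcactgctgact
Ifit3: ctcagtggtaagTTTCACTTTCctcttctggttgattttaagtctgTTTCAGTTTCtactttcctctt
Ifit3b: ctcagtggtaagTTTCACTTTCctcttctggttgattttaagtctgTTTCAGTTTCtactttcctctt
Oas1a: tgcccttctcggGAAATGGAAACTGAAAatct
Gbp3: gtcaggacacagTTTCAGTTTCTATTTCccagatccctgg
Gbp7: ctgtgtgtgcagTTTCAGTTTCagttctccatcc
Igtp: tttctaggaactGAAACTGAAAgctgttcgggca

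Of the stretches shown, Ifit1 is at chr19:34640773-34640825 (plus strand) and Oas1a at chr5:120907526-120907557 (minus strand). The gamma-leaning Gbp3, Gbp7 and Igtp are at chr3:142559987-142560026, chr3:142530271-142530304 and chr11:58199510-58199543, all on the plus strand. Stretches were printed only where ISRE letters stood upstream, so these 3 cannot speak for their class. ISRE letters stood in 14 of 30 type I members and in 5 of 8 gamma-leaning members, so they did not separate the classes.

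**Figure D1:**
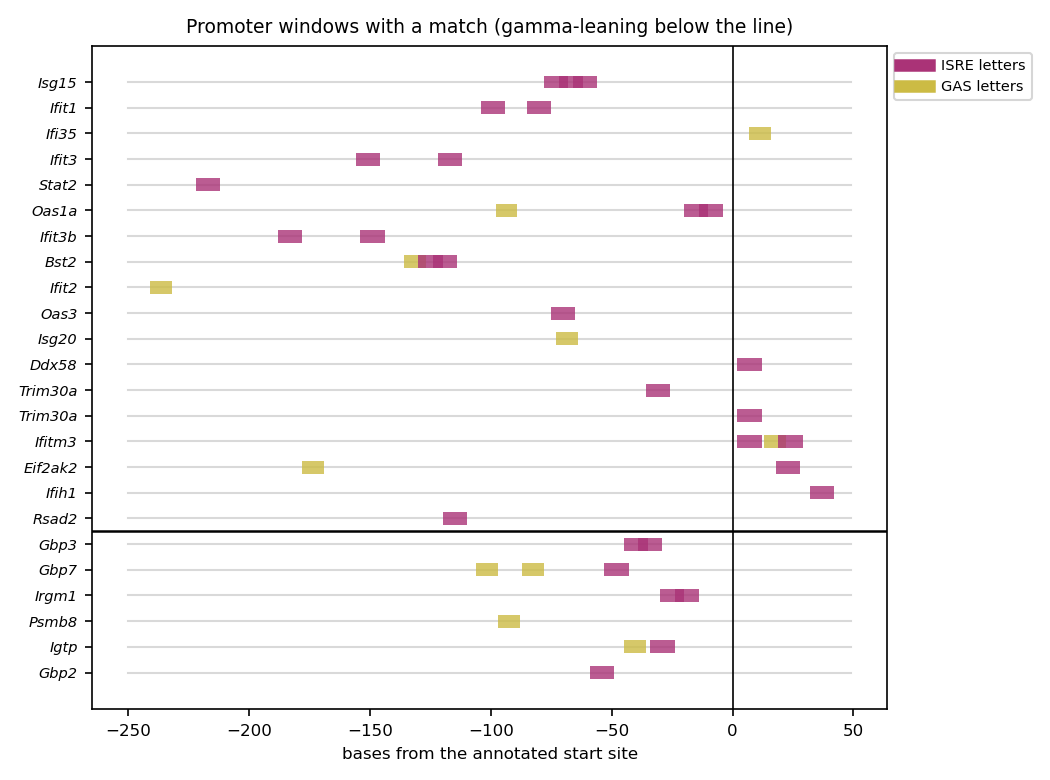
Position of ISRE and GAS letters, in bases from the annotated start site, in each member promoter with at least 1 match; grey lines are the 300-base windows, and Trim30a has windows at more than 1 start site. Members are in the order of their fold change within each class, and ISRE letters occur in both classes.

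Total counts were 38738204 to 51932509 per library. Levels are given as CPM (counts scaled to a common library total) after scaling between libraries, and a difference is a log2 fold change, knockout over wild type, with its standard error (SE). edgeR's quasi-likelihood test called 0 of 18927 genes at an adjusted p under 0.05 (0%), and the smallest adjusted p over all genes was 0.0568. At an unadjusted p under 0.05, it found 666 genes lower (3.52%) and 829 higher (4.38%) in the knockout. DESeq2 called 24 of 20855 genes lower (0.115%).

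Type I members were mostly at lower levels in the knockout, by modest amounts. In all 8 gamma-leaning members the groups overlapped, but 8 genes are too few to set this apart from the shares of all genes. Of the 39 type I members, 36 had a log2 fold change below 0, against 52.3% of all genes tested. Their median was -0.32, against -0.02 for all genes, and they ranged from -0.97 (Trex1) to 0.44 (Dtx3l). With edgeR's unadjusted p under 0.05, 18 type I members were lower (3.52% of all genes) and 1, Trim25, was higher. Every knockout library lay below every wild type library in 20 type I members (7.2% of all genes). The reverse held in 2, Trim25 and Dtx3l (8.95% of all genes). No member passed the adjusted threshold with edgeR (smallest adjusted p 0.627). DESeq2 called 2 members, both lower (0.115% of all genes): Ifit1 (adjusted p 0.0453) and Trex1 (adjusted p 0.0358). All exonic bases of Trex1 fall within exons of Atrip on the same strand, so its reads cannot be told apart from those of Atrip. Without knockout replicate 2, 11 members in place of 18 had an unadjusted edgeR p under 0.05 and were lower, while the share of all genes was 1.34%.

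Of the 8 gamma-leaning members, 6 were below 0 (52.3% of all genes). Their median was -0.16, against -0.02 for all genes, with a range of -0.33 to 0.42. None had an unadjusted edgeR p under 0.05, where 3.52% of all genes were lower and 4.38% higher. None had groups that did not overlap, against 7.2% of all genes lower and 8.95% higher. With 8 genes, a count of 0 lies near these shares. Their median turned positive, at 0.04, without wild type replicate 3. The difference between the classes was not tested.

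**Figure D2:**
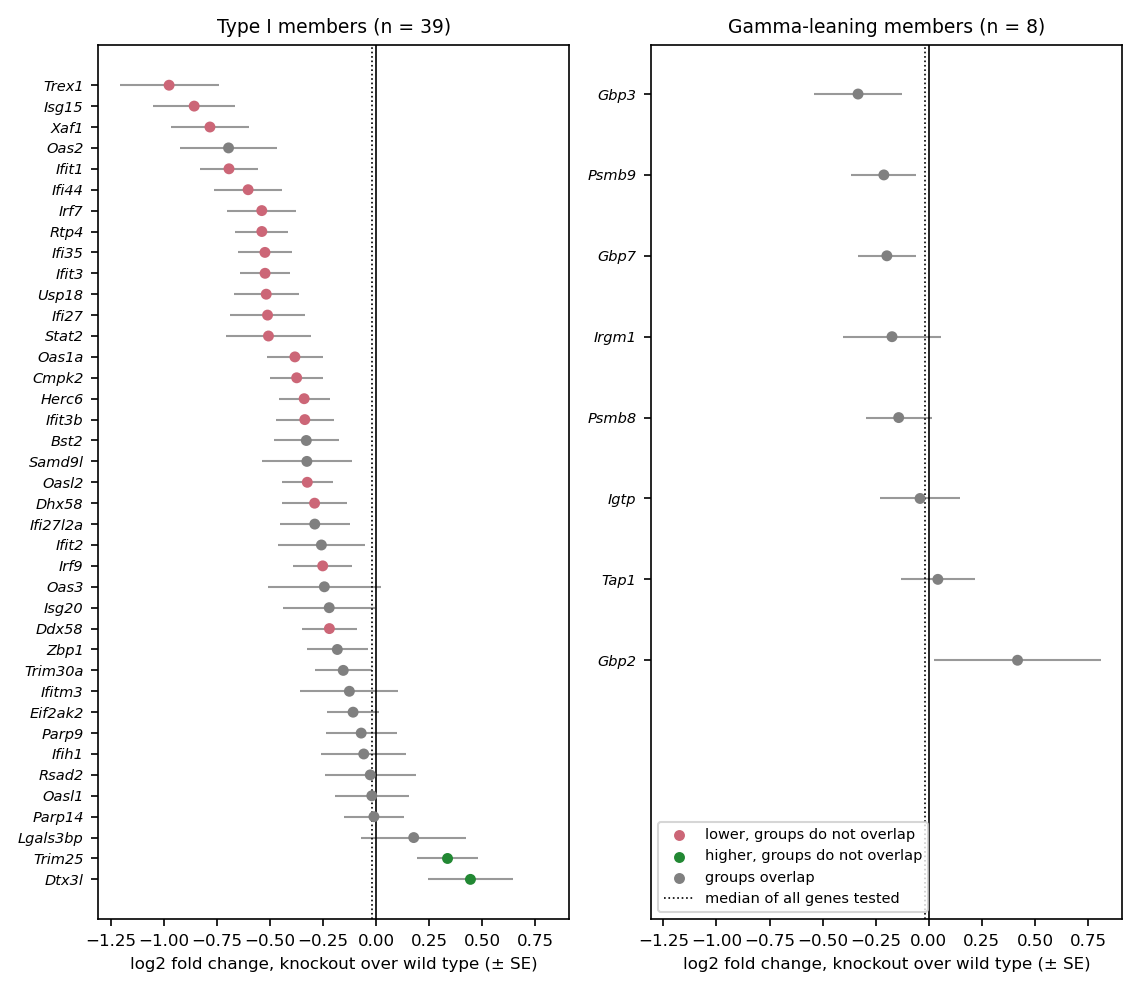
Log2 fold change of each member, knockout over wild type, with its SE (bars), type I on the left and gamma-leaning on the right; colours mark whether the 3 knockout and 3 wild type libraries overlap. Most type I members sit left of 0, with 20 not overlapping, and all 8 gamma-leaning members overlap.

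**Figure D3:**
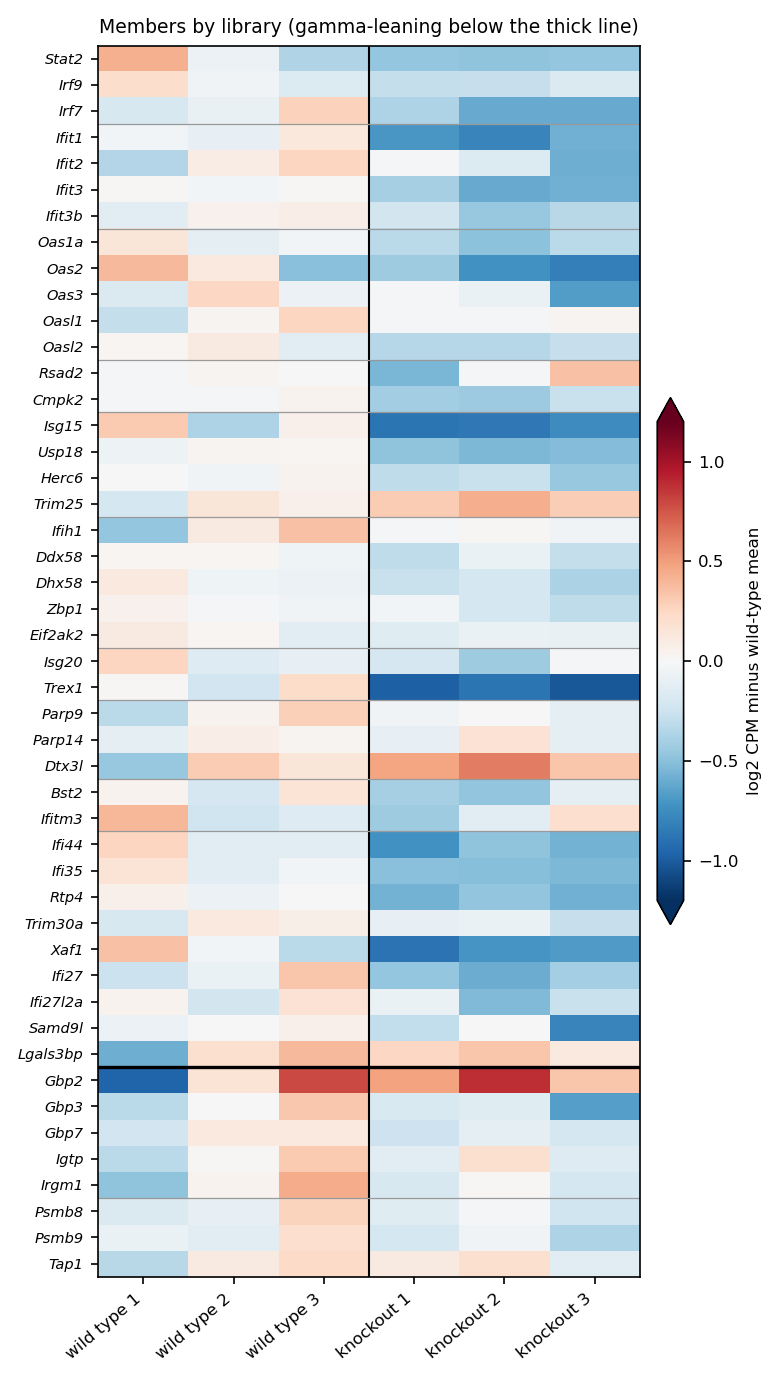
Log2 CPM of each of the 47 members in each library minus the wild-type mean, in order of role. The knockout columns are blue (lower) for most type I members, and Trim25 and Dtx3l are red (higher); among gamma-leaning members wild type 1 is blue in 8 of 8 rows.

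The transcription factors of the pathway were lower in every knockout library. Irf7, the inducible amplifier of the type I response, was at 89.5, 96.2 and 124 CPM in the wild type libraries and at 79.1, 67.0 and 67.0 CPM in the knockout. Its groups did not overlap (log2 fold change -0.54, unadjusted edgeR p 0.0106). Stat2, the activating subunit of ISGF3, was at 153, 108 and 88.6 CPM in wild type and at 82.6, 81.4 and 82.2 CPM in the knockout. The knockout values were tightly grouped, whereas wild type 1 stood far above the rest. The log2 fold change of Stat2 was -0.51, and -0.26 without wild type replicate 1. Irf9, the DNA-binding part of ISGF3, was at 112, 94.3 and 86.6 CPM in wild type and at 79.9, 80.3 and 86.0 CPM in the knockout. Its groups were apart by less than 1 CPM between wild type 3 and knockout 3 (log2 fold change -0.25, unadjusted edgeR p 0.107). Without wild type replicate 1 the value of Irf9 was -0.14.

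IFIT proteins bind viral RNA and block its translation, and their genes form a cluster on chromosome 19. Ifit1, which binds the 5′ end of RNA lacking a host cap mark, was at 28.7, 27.4 and 31.9 CPM in wild type and at 18, 16.9 and 19.6 CPM in the knockout. The lowest wild type library was well above the highest knockout library (log2 fold change -0.69 ± 0.14 SE, unadjusted edgeR p 0.0011). Ifit3, a partner that stabilises IFIT1, was at 99.0, 96.0 and 99.1 CPM in wild type and at 74.4, 64.6 and 65.7 CPM in the knockout. Its log2 fold change was -0.52 ± 0.12 (SE), with no overlap. Ifit3b, its near copy, was at 27.8, 31.5 and 32.3 CPM against 26.2, 22.3 and 24.1 CPM. The longest transcripts of Ifit3 and Ifit3b share 51.2% and 44.5% of their 50-base words with each other, so the split of reads between them is uncertain. Ifit2, in contrast, was at 58.0, 78.7 and 88.4 CPM in wild type and at 73.1, 66 and 49.3 CPM in the knockout, and its groups overlapped. Its log2 fold change of -0.26 became -0.41 without wild type replicate 1, -0.12 without wild type replicate 3 and -0.11 without knockout replicate 3.

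OAS proteins are sensors that make a second messenger on meeting double-stranded RNA. Oas1a was at 36.8, 30.9 and 32.6 CPM in wild type and at 26.6, 23.8 and 26.6 CPM in the knockout, with no overlap. It shares 57.6% of its 50-base words with Oas1g, which was at 18.8, 15.6 and 15.4 CPM in wild type and at 11.6, 10.2 and 11.5 CPM in the knockout. Reads of this pair cannot be cleanly assigned. Oasl2, an OAS-like protein, was at 85.4, 90.5 and 77.0 CPM in wild type and at 66.3, 66.2 and 69.6 CPM in the knockout, again with no overlap. Oas2 was at 84.2, 69.7 and 45.3 CPM against 47.7, 38.9 and 36.5 CPM. Wild type 3 lay inside the knockout range for Oas2 (log2 fold change -0.69, unadjusted edgeR p 0.0170). Oas3 and Oasl1 overlapped, at log2 fold changes of -0.24 and -0.02. Oas3 was at -0.10 without wild type replicate 2 and at -0.06 without knockout replicate 3.

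ISG15 is a ubiquitin-like protein that is attached to other proteins. Isg15 was at 33.1, 20.6 and 27.7 CPM in wild type and at 14.4, 14.7 and 15.8 CPM in the knockout. The log2 fold change was -0.86 ± 0.19 (SE, unadjusted edgeR p 0.00223), and the wild type libraries spread more than the knockout libraries. Usp18, the protease that removes ISG15 and dampens IFNAR signalling, was at 14.5, 15.5 and 15.4 CPM in wild type and at 10.8, 10.4 and 10.5 CPM in the knockout. Within each group its 3 libraries were close, and the groups did not overlap (log2 fold change -0.52). Herc6, the main ligase for ISG15 in mice, was at 38.4, 37.5 and 39.8 CPM against 31.2, 32.1 and 28.2 CPM. Of its 50-base words, 23.8% also stand in an overlapping gene model, Gm45193. Trim25, a ligase that activates RIG-I, went the other way, at 88.7, 114 and 108 CPM in wild type and at 127, 139 and 126 CPM in the knockout (log2 fold change 0.34, unadjusted edgeR p 0.0466).

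Rsad2 encodes viperin, which makes a chain-terminating nucleotide, and its neighbour Cmpk2 encodes a nucleotide kinase that supplies it. Cmpk2 was at 30.2, 29.8 and 31.2 CPM in wild type and at 22.7, 22.5 and 25.2 CPM in the knockout, with no overlap (log2 fold change -0.37). Rsad2 was at 46.7, 48.5 and 47.4 CPM in wild type and at 32.5, 46.7 and 60.8 CPM in the knockout. The wild type libraries were nearly equal, whereas the knockout libraries spanned both sides of them (log2 fold change -0.03).

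The cytosolic sensors were slightly lower or level. All 5 were below 0 (52.3% of all genes), and 2 had every knockout library below every wild type library (7.2% of all genes). No sensor had an unadjusted edgeR p under 0.05, but with 3.52% of all genes lower by it, 5 genes are too few to show a difference from that share. Ddx58, which encodes RIG-I, was at 136, 136 and 129 CPM in wild type and at 108, 126 and 110 CPM in the knockout, with no overlap (log2 fold change -0.22). Dhx58, which encodes the regulator LGP2, was at 18, 16 and 15.8 CPM against 13.8, 14.2 and 12.7 CPM, also with no overlap (log2 fold change -0.29). Zbp1, a Z-form nucleic acid sensor, was at 21.4, 20.4 and 20.1 CPM against 20.2, 17.8 and 16.7 CPM, and overlapped by knockout 1. Ifih1 (MDA5) and Eif2ak2 (the kinase PKR) had log2 fold changes of -0.06 and -0.11. Eif2ak2 was at -0.06 without wild type replicate 1 and at -0.17 without wild type replicate 3.

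Trex1, an exonuclease that clears cytosolic DNA, had the lowest fold change of all members. It was at 6.19, 5.22 and 7.17 CPM in wild type and at 3.10, 3.33 and 3.02 CPM in the knockout (log2 fold change -0.97 ± 0.23 SE). Trex1 lies at chr9:109057933-109059734 on the minus strand of GRCm38, and 100% of its exonic bases fall within exons of Atrip on the same strand. Atrip, a DNA damage response gene, was at 3.20, 6.43 and 9.91 CPM in wild type and at 2.62, 2.60 and 1.77 CPM in the knockout (log2 fold change -1.48). Reads of Trex1 and Atrip cannot be told apart from these counts. Isg20, an RNA exonuclease, overlapped between groups (log2 fold change -0.22, and -0.08 without wild type replicate 1 or -0.12 without knockout replicate 2).

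PARP9, PARP14 and DTX3L act in ADP-ribosylation and ubiquitin marking, and PARP9 pairs with DTX3L. Dtx3l was at 30.8, 52.0 and 46.6 CPM in wild type and at 58.4, 64.6 and 53.1 CPM in the knockout. Knockout libraries were all above wild type, by about 1 CPM at the closest point (log2 fold change 0.44, unadjusted edgeR p 0.0591). Its value without wild type replicate 1 was 0.25. Parp9 overlapped, at 69.1, 88.6 and 105 CPM against 83.8, 86.7 and 79.9 CPM. Their exons overlap by 458 bases on opposite strands, and whether counting used strand is not given in the sources used here. Parp14 had a log2 fold change of -0.01.

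Among the other type I members, 5 of 9 had an unadjusted edgeR p under 0.05 (3.52% of all genes), all lower and with no overlap (7.2% of all genes). Xaf1, a pro-apoptotic factor, was at 58.5, 44.9 and 36.6 CPM in wild type and at 24.9, 28 and 28.6 CPM in the knockout (log2 fold change -0.78 ± 0.18 SE). Rtp4, a chaperone that binds viral replication sites, was at 32.1, 29.4 and 31.0 CPM against 20.8, 22.2 and 20.7 CPM (log2 fold change -0.54). Of the 50-base words of Rtp4, 13.6% also stand in the overlapping gene model Gm45338. Ifi35, which binds NMI, was at 58.6, 47.5 and 51.2 CPM against 37.0, 36.7 and 35.8 CPM (log2 fold change -0.52). The other 2 were Ifi44 and Ifi27, at log2 fold changes of -0.60 and -0.51, and Ifi27 was at -0.32 without wild type replicate 3. Lgals3bp, a secreted glycoprotein, was low in wild type 1 alone, at 134 CPM against 217 to 262 CPM in the other 5 libraries. Samd9l, Trim30a and Ifi27l2a overlapped between groups, at log2 fold changes of -0.33, -0.15 and -0.29. Samd9l was at -0.53 without knockout replicate 2 and at -0.14 without knockout replicate 3. Trim30a was at -0.24 without wild type replicate 1 and near -0.09 without wild type replicate 2, or -0.10 without knockout replicate 3. Ifi27l2a was at -0.18 without knockout replicate 2. The membrane proteins Bst2, which tethers budding virions, and Ifitm3, which blocks viral entry, also overlapped. Bst2 was at 65.4, 55.2 and 71.2 CPM in wild type and at 48.2, 45.8 and 58.7 CPM in the knockout (log2 fold change -0.33). Ifitm3 was at 198, 127 and 134 CPM in wild type and at 111, 136 and 173 CPM in the knockout, with no order by genotype.

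**Figure D4:**
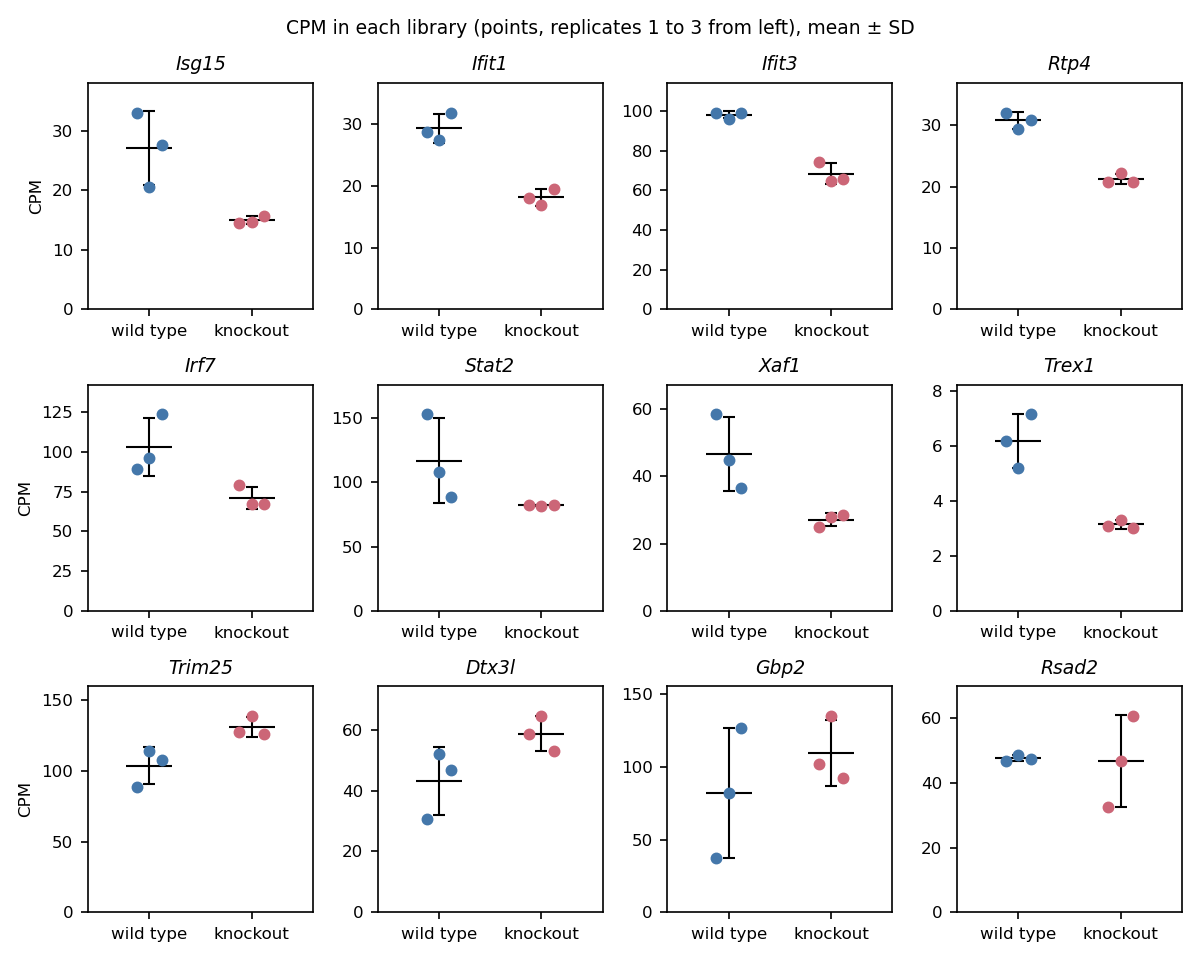
CPM of 12 members in each library (points, replicates 1 to 3 from left) with the group mean and SD; each panel has its own axis from 0. Isg15, Ifit1, Ifit3, Rtp4, Irf7, Stat2, Xaf1 and Trex1 are separated with the knockout lower, Trim25 and Dtx3l with the knockout higher, and Gbp2 and Rsad2 overlap.

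The guanylate-binding proteins and immunity-related GTPases attack vacuoles that hold pathogens and are classic products of interferon gamma. Gbp2 was at 37.6, 82.4 and 127 CPM in wild type and at 102, 136 and 92.3 CPM in the knockout (log2 fold change 0.42 ± 0.39 SE). The wild type libraries spanned more than the difference between groups, and the log2 fold change was 0.07 without wild type replicate 1, 0.88 without wild type replicate 3 and 0.24 without knockout replicate 2. Gbp3 was at 72.3, 90.3 and 113 CPM against 79.7, 81.6 and 57.2 CPM, and Gbp7 at 64.2, 81.5 and 81.6 CPM against 63.5, 69.6 and 65.1 CPM. Both overlapped, at log2 fold changes of -0.33 and -0.20. Gbp3 was at -0.16 without wild type replicate 3 and at -0.18 without knockout replicate 3, and Gbp7 at -0.30 without wild type replicate 1. Igtp was at 38.0, 48.0 and 59.0 CPM in wild type and at 43.6, 54.5 and 42.8 CPM in the knockout, and 12.3% of its 50-base words also stand in Irgm2. Irgm1, a regulator of these GTPases, was at 103, 148 and 196 CPM against 126, 146 and 125 CPM. Psmb8 and Psmb9, which encode immunoproteasome subunits, had log2 fold changes of -0.14 and -0.21. Psmb9 was at -0.10 without wild type replicate 3 and at -0.13 without knockout replicate 3. Tap1, one chain of the peptide transporter that feeds MHC class I, was at 0.04.

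Among gamma-leaning members the wild type libraries spread widely. Wild type 3 was the highest of the 6 libraries in 7 of 8 members, wild type 1 the lowest wild type library in 7 of 8, and knockout 2 the highest knockout library in 8 of 8. The median deviation of these members from their mean over all 6 libraries was -0.23, 0.05 and 0.33 (log2) in wild type 1 to 3 and -0.09, 0.07 and -0.15 in knockout 1 to 3. For type I members it was 0.18, 0.13 and 0.21 in wild type and -0.13, -0.18 and -0.17 in the knockout, so the groups did not overlap. Single type I members also varied within wild type. Of the 39, wild type 1 was the highest of the 6 libraries in 14 and the lowest in 6. Markers of T and NK cells, the main source of interferon gamma, summed to 44.8, 58.9 and 75.5 CPM in wild type and 48.2, 65.7 and 25.2 CPM in the knockout over the 12 of 14 listed genes with a row. Of these 12, 9 were below 0 (52.3% of all genes) and 3 above. At an unadjusted edgeR p under 0.05, 1 was lower (3.52% of all genes). It was Gzmb, at 2.28, 1.92 and 11.0 CPM in wild type and at 0.844, 1.55 and 1.35 CPM in the knockout. Ifng itself had 13, 18 and 23 counts in wild type and 9, 19 and 0 in the knockout. The part of these cells in the gamma-leaning values was not tested. In whole tissue, fewer cells of a type and less RNA per cell cannot be told apart.

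**Figure D5:**
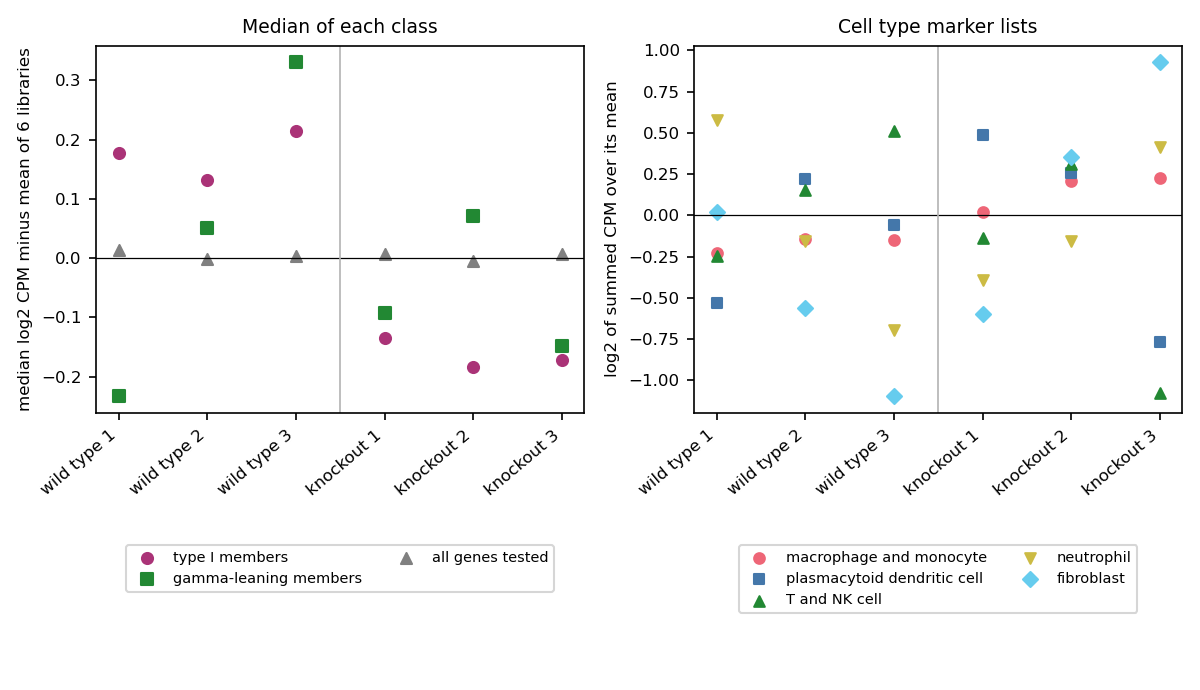
Left, median over each class of log2 CPM minus the mean of the 6 libraries, by library; right, log2 of the summed CPM of each cell type marker list over its mean. Type I medians are 0.13 to 0.21 in wild type and -0.18 to -0.13 in the knockout, while gamma-leaning medians overlap between the genotypes.

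Genes upstream of the response lay on both sides of 0. Of 21 interferon genes, 14 had 0 counts in every library, and Ifnb1 had 0, 0 and 5 counts in wild type and 3, 2 and 0 in the knockout, too few for a comparison. Of 9 genes for interferon receptors and JAK kinases, 3 were below 0 and 6 above, with a median of 0.17. None had an unadjusted edgeR p under 0.05, where 3.52% of all genes were lower and 4.38% higher. Ifnar1 and Ifnar2, the type I receptor chains, had log2 fold changes of 0.17 and -0.17, and Ifngr1 and Ifngr2, the gamma receptor chains, 0.22 and 0.28. Jak1 had the smallest p of this list (log2 fold change 0.37, unadjusted edgeR p 0.0742).

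Of 8 negative regulators of interferon signalling, 1 was lower and 1 higher at an unadjusted edgeR p under 0.05, against 3.52% and 4.38% of all genes. Socs3, an inhibitor of JAK signalling, was at 118, 102 and 150 CPM in wild type and at 85.0, 95.7 and 94.1 CPM in the knockout. Ptpn11, a phosphatase, was at 114, 145 and 145 CPM in wild type and at 166, 191 and 186 CPM in the knockout. Of 12 adaptors and kinases of nucleic acid sensing, 1 was lower and 2 higher by the same measure, again against 3.52% and 4.38% of all genes, and each p was close to 0.05. Irf3, the factor that starts interferon transcription, had a log2 fold change of -0.30, Sting1, the adaptor for cytosolic DNA, 0.28, and Tlr9, an endosomal DNA receptor whose groups overlapped, 1.34 (unadjusted edgeR p 0.0479, 0.0448 and 0.0499).

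A further 49 type I induced genes that are no members were tested, and 36 of them were below 0 (52.3% of all genes), with a median of -0.18. By unadjusted edgeR p under 0.05, 6 were lower (3.52% of all genes) and 0 higher, and 9 had every knockout library below every wild type library (7.2% of all genes). Ddx60, a helicase that aids RIG-I, was at 14.5, 17.3 and 14.4 CPM in wild type and at 11.0, 10.9 and 11.7 CPM in the knockout. Trim12a, of the TRIM restriction factor family, had a log2 fold change of -0.43. Of 26 other gamma induced genes, 13 were below 0 and 13 above, with a median of 0.00. By unadjusted edgeR p under 0.05, 2 of them were lower (3.52% of all genes) and 1 higher (4.38% of all genes). Psme1 and Psme2, which encode proteasome activator subunits, were lower, at log2 fold changes of -0.46 and -0.40 (unadjusted edgeR p 0.0154 and 0.0253). Cxcl9, a chemokine that draws T cells, was at 9.36, 12.2 and 15.8 CPM in wild type and at 21.6, 35.3 and 13.3 CPM in the knockout. It was the higher gene (log2 fold change 0.91, unadjusted edgeR p 0.0350), though its groups overlapped. Its relative Cxcl10 was at 26.4, 42.5 and 95.8 CPM against 35.6, 44.5 and 21 CPM (log2 fold change -0.70). Irf1, the main gamma-induced transcription factor, had a log2 fold change of -0.09.

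Macrophages and monocytes express many type I members. Their markers, summed over 14 genes, were at 1727 to 1832 CPM in wild type and 2049 to 2360 CPM in the knockout. Of the 14, 11 were above 0 and 3 below, whereas 52.3% of all genes were below 0. Of them, 3 (Itgam, Lyz2 and C1qb) were higher at an unadjusted edgeR p under 0.05 (4.38% of all genes). In 5, every knockout library lay above every wild type library (8.95% of all genes). Lyz2, the most abundant of them, had means of 628 and 916 CPM, while Ly6c2, Ccr2 and Fcgr1 were below 0. Markers of plasmacytoid dendritic cells, the main producers of type I interferon, summed to 9.90 to 16.7 CPM in wild type and 8.42 to 20.1 CPM in the knockout over 4 genes, and the groups overlapped. Fibroblast markers summed to 1248 to 2700 CPM in wild type and 1761 to 5075 CPM in the knockout, and proximal tubule markers to 5963 to 17590 CPM and 2701 to 8829 CPM. All 8 fibroblast markers were above 0, whereas 52.3% of all genes were below 0, and 2 were higher at an unadjusted edgeR p under 0.05 (4.38% of all genes). Of 10 proximal tubule markers, 9 were below 0 and 1 above (52.3% of all genes were below 0), with 0 at that p. No marker with a row in these lists was at 0 in all libraries. The part of cell composition in the type I values was not tested.

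Fold changes moved with transcript length. All genes tested with a longest transcript under 3240 bases had a median of -0.10 and longer ones 0.09, while type I members had medians of -0.38 (19 shorter) and -0.23 (20 longer). After the length trend was removed from each library, the type I median was -0.31 with 33 of 39 below 0, Isg15 was at -0.59 and Bst2 at -0.08.

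Per kilobase of longest transcript, Ifitm3 had the highest mean level over the 6 libraries, at 216 CPM per kb, followed by Ifi27l2a at 115 and Ifi27 at 113 CPM per kb. Oas3 was the lowest member at 1.07 CPM per kb.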

How the data were processed

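Total RNA of obstructed mouse kidneys was sequenced in 6 libraries, per the labels' protocols. The deposited table holds raw counts per gene symbol, made by the authors with GRCm38 (mm10) as the build, per the submitters' processing notes. Aligner, counter and strand setting: not given in the sources used here. Of 34714 rows, 8308 were 0 in every library. Genes were kept by filterByExpr (18927 genes, 99.96% of counts), scaled by TMM and tested with edgeR 4.0.16 in R 4.3.3 (quasi-likelihood F test, genotype only, all 6 libraries, Benjamini-Hochberg over all genes tested, threshold 0.05). The SE is the log2 fold change over the square root of F. Log2 CPM used a prior count of 2. DESeq2 1.42.0 and limma 3.58.1 were alternatives. The common biological coefficient of variation was 26.9%. Promoter and microRNA sequences are from RefSeq GRCm38.p6, and gene positions and transcript lengths from GENCODE M21. The fits were tested on simulated data. No pair of libraries agreed within sampling noise.

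The members and gene lists were chosen with earlier results of these data known, and the class split, from textbook knowledge, likewise. Named in full are, in each role, the 3 members of lowest p whose mean reached 1 CPM in a group, and all members of families shown as sequences, with other members given where they bear on the role. Pathway genes follow the same limit of 3, beside a fixed set of receptors, interferons and chemokines. Oas1b, Gbp11, Cxcl11, Trac and Trbc2 of the lists were not analysed here. A gene of the pathway lists is not reported here and was left out of its list's count.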

Additional observations from a re-analysis of the deposited data

How the results depend on the processing

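Across 16 alternatives, 28 of 39 type I members stayed below 0, 2 stayed above and 9 changed sign in at least 1; of 8 gamma-leaning members the numbers were 3, 1 and 4. The cause of these changes was not tested. Members with groups apart and the knockout higher numbered 1 with upper-quartile factors (7.81% of all genes) and 1 with library size alone (7.59%). They numbered 5 when replicate 3 was dropped from each group (24.9% of all genes). Members higher at an unadjusted p under 0.05 numbered 2 with library size alone (3.6% of all genes). They numbered 0 with DESeq2 (3.24%) or the length trend removed (3.35%). With 1 library left out they numbered 0 to 2 (1.6% to 4.45% of all genes). Members lower numbered 11 to 19 with 1 library left out (1.34% to 4.92% of all genes). The type I median was -0.36 with upper-quartile factors. The median of all genes was -0.05 with upper-quartile factors (-0.052), -0.047 with library size alone, -0.0081 with the length trend removed and -0.0042 without replicate 3 of both groups; with 1 library left out it ran from -0.027 to 0.0065. The gamma-leaning median was 0.0873 without replicate 3 of both groups, with 3 members below 0, and ran from -0.24 to 0.043 with 1 library left out, with 3 to 7 below 0. Over all genes, DESeq2 called 24 lower and 29 higher (2 members lower), limma-voom 2 lower, and the edgeR fit without a filter 1 lower and 1 higher. Without replicate 3 of both groups 1 was higher, and with 1 library left out 0 to 1.

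Same-numbered libraries correlated at -0.282, 0.179 and -0.288 in their deviations from the group mean, and the other pairs at -0.196 to 0.37. With 3 libraries a group these deviations are tied to each other, so the values cannot decide whether the numbers pair the samples. With the replicate block edgeR called 1 gene higher, and 16 members were lower (3.16% of all genes) and 1 higher (3.77%) at an unadjusted p under 0.05.

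With the length trend removed, the log2 fold change was 0.046 for Oasl1, 0.16 for Ifitm3, 0.0056 for Ifi27l2a, 0.0410 for Igtp and -0.016 for Tap1. Without replicate 3 of both groups it was 0.027 for Ifit2, 0.0988 for Oasl1, 0.15 for Ifih1, 0.11 for Parp9, 0.057 for Parp14, 0.19 for Igtp, 0.11 for Irgm1 and 0.060 for Psmb8.

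With 1 library left out at a time, the log2 fold change ran from -0.15 to 0.12 for Oasl1, -0.26 to 0.18 for Rsad2, -0.26 to 0.13 for Ifih1, -0.21 to 0.085 for Parp9, -0.11 to 0.040 for Parp14, -0.30 to 0.10 for Ifitm3, -0.060 to 0.38 for Lgals3bp, -0.19 to 0.13 for Igtp, -0.38 to 0.077 for Irgm1, -0.23 to 0.010 for Psmb8 and -0.11 to 0.16 for Tap1.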

Other observations

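The pairs Dtx3l and Parp9, Tap1 and Psmb9, Rsad2 and Cmpk2, and Isg15 and Usp18 were compared within each library, a look taken after their values were seen. The log2 ratio of Dtx3l to Parp9, whose genes lie head to head on chromosome 16, was -1.17, -0.77 and -1.17 in wild type and -0.52, -0.42 and -0.59 in the knockout, with no overlap. For Tap1 to Psmb9 it was 1.03, 1.52 and 1.32 in wild type and 1.61, 1.52 and 1.54 in the knockout, where the groups touched. For Rsad2 to Cmpk2 it was 0.63, 0.70 and 0.60 in wild type and 0.52, 1.06 and 1.27 in the knockout, and the groups overlapped. For Isg15 to Usp18 it was 1.18, 0.41 and 0.84 in wild type and 0.41, 0.50 and 0.58 in the knockout, with overlap. No test was run on these ratios.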
